A study of Mus musculus with 10 samples.

Results

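Voltage-gated and potassium ion channel genes were examined in cells sorted from the embryonic mouse cortex. They were taken by symbol: every gene starting with Kcn (potassium channels) or Cacn (calcium channels), and every Scn gene with a number and the letter a or b (sodium channels). A total of 138 genes matched, and 121 of them had at least 10 counts summed over the 10 libraries, out of 18006 genes with that minimum and 27178 gene IDs in all. There were 11 sodium, 85 potassium and 25 calcium channel genes. Of the 121, 102 had enough counts to be tested between groups. The other 19, from Kcnq1 with 10 counts to Cacna1f with 55 over all libraries, did not. A group of 3 potassium members, Kcnq1ot1, Kcnd3os and Kcnmb4os2, carries the prefix but encodes no channel, being non-coding or antisense transcripts.

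Bulk RNA-seq was done on GFP-positive cells after in utero electroporation of PiggyBac plasmids, transposons that a co-injected transposase inserts into the genome. At E17.5, 2 C57BL/6 groups had received the control plasmid PB-Ctrl at E14.5: wild type (WT), and CcKO, which carries Nestin-Cre and Ccn1fl/fl. Nestin-Cre deletes the floxed gene in neural progenitors and their progeny, so deletion is not limited to the electroporated cells. At E15.5, 3 groups of wild-type ICR embryos had received PB-Ctrl, PB-CCN1 or PB-GPC4 at E13.5. CPM is a library's counts scaled to its effective size. Every group had 2 libraries, with 22505945 to 30825498 counts each, and the labels do not say whether these came from separate animals, so a p-value reflects only how far these samples spread, which may be technical. The secreted matricellular protein gene Ccn1 stood at 17.7 and 12.1 CPM in WT and at 0.669 and 3.12 CPM in CcKO. It stood at 50.5 and 57.4 CPM in PB-Ctrl and at 7099 and 7004 CPM in PB-CCN1, and the glypican gene Gpc4 at 5118 and 5004 CPM in PB-GPC4 against 70.6 and 66.1 CPM in PB-Ctrl. Markers of cortical excitatory neurons summed to between 6160 and 6956 CPM in every library and those of radial glia to between 594 and 858 CPM, while microglial and endothelial markers summed to less than 8 CPM.

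Ion channels of these classes set how a cell carries electrical signals. Sodium channel pores start the action potential, potassium channel pores end it and hold the resting potential, and calcium channel pores couple voltage to calcium entry. Auxiliary subunits change how many pores reach the membrane and how they open. In the developing cortex, progenitors and migrating neurons already transcribe many of these genes, before mature firing appears.

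Levels between genes were compared in FPKM, which divides counts by gene length. Summed over all members of a class, calcium channel genes held 312.2 to 391.7 FPKM per library, potassium channel genes 226.1 to 298.8 FPKM and sodium channel genes 42.6 to 53.5 FPKM. Much of the calcium sum came from auxiliary subunits and not from pores: the 10 Cacna1 pores together held 39.8 to 55.4 FPKM, the 4 beta subunits 107.6 to 127.6 FPKM, and the 7 members of the gamma family 124.3 to 200.2 FPKM. Most of this gamma family, the TARPs, are known for binding AMPA-type glutamate receptors.

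The most abundant calcium members were Cacng7 (a gamma-family gene, mean 84.5 FPKM over the 10 libraries) and Cacnb3 (a beta subunit that helps pores reach the membrane, 84.5 FPKM). Cacng4, a TARP, followed at 49.4 FPKM, and Cacnb1 and the alpha2delta subunit Cacna2d1 stood at 25.2 and 25.1 FPKM. Cacnb1 shares its locus with the ribosomal protein gene Rpl19, and the strand used in counting is not given, so its reads may include those of its neighbour. Cacnb3 alone took 71.0% to 80.0% of the beta subunit FPKM in every library.

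Among abundant potassium members, Kcnn2, a small-conductance calcium-activated channel, averaged 28.1 FPKM over the 10 libraries. Kcnj11, the pore of ATP-sensitive channels, averaged 18.7 FPKM. Kcna3, a delayed rectifier of the Shaker family, averaged 16.3 FPKM and the two-pore leak channel Kcnk10 14.9 FPKM. Of these 4, Kcna3 had the widest spread of group means as a ratio, from 3.54 FPKM in WT to 24.8 FPKM in PB-CCN1, whereas those of Kcnj11 ran from 16.5 to 21.4 FPKM.

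Sodium channel transcripts were dominated by the beta subunit Scn3b at a mean of 16.3 FPKM and the pore Scn3a at 13.8 FPKM, the pore best known from embryonic brain. The pores Scn8a, Scn1a and Scn2a, which carry much of the sodium current of mature neurons, averaged 7.40, 5.43 and 3.39 FPKM. Scn3a held 41.3% to 48.1% of the pore FPKM in each library, the largest share in all 10. Scn8a held 19.8% to 32.0% and came second in 7 libraries, and Scn1a came second in PB-CCN1 replicate 1 and both PB-GPC4 libraries. Scn10a, Scn4a and Scn4b, known from sensory neurons, muscle and other excitable tissue, had 8, 4 and 4 counts over all 10 libraries and fell below the minimum.

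**Figure D1:**
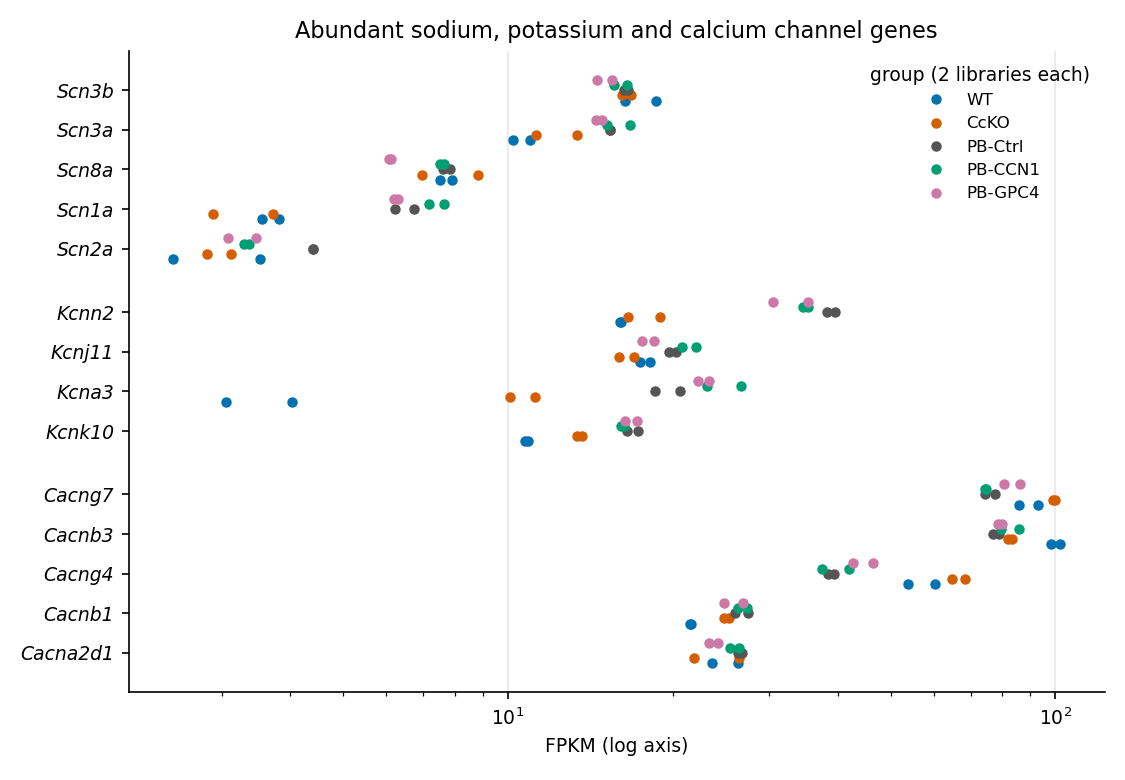
FPKM (log axis) in each of the 10 libraries of abundant sodium, potassium and calcium channel genes. Cacng7 and Cacnb3 lie highest, Kcna3 shows the widest spread between groups on this axis, and Scn3b holds a narrow range in all 5 groups.

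The comparison of CcKO with WT at E17.5 is between groups that, as labelled, differ in Nestin-Cre and Ccn1fl/fl together. Effects of Cre, of the floxed alleles and of the loss of Ccn1 cannot be told apart. Several potassium and calcium pores stood higher in CcKO, among them Kcna3 (3.06-fold), Kcnq3 (2.64-fold), Cacna1e (2.52-fold) and Kcnq5 (2.23-fold). By the edgeR quasi-likelihood test, with Benjamini-Hochberg adjustment over all 15371 genes tested, 31 of the 102 tested members were called at an adjusted p of 0.05, 26 higher and 5 lower. Of all genes tested, 30.3% were called, 17.4% higher and 12.9% lower, so the share of members called was that of the background. Changes are given as the fitted log2 ratio of the groups, the log2 fold change. Its median was 0.24 over the members and 0.02 over all genes. Fold changes also followed gene length here, and with a smooth trend over length removed 33 members were called, 20 higher and 13 lower, and with the trends over length and GC content removed 32, 21 higher and 11 lower.

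Calcium pores were called higher in 5 of 9 tested members and lower in 0, against 17.4% and 12.9% of all genes. Cacna1e, the pore of R-type currents (Entrez gene 12290, chromosome 1, 154390806 to 154884785 on GRCm38.p6), held 15.2 and 11.7 CPM in WT and 36.4 and 31.0 CPM in CcKO. Both CcKO libraries lay above both WT libraries, and the log2 ratio was 1.33 (standard error 0.12, edgeR adjusted p = 2.81e-09), or 0.86 with the length trend removed (adjusted p = 3.06e-06). The L-type pore Cacna1c held 61.6 and 53.6 CPM in WT and 91.5 and 83.4 CPM in CcKO, a log2 ratio of 0.61 (standard error 0.07, adjusted p = 2.39e-07). The N-type pore Cacna1b, which serves transmitter release, held 46.8 and 40.6 CPM in WT and 66.0 and 58.2 CPM in CcKO, a log2 ratio of 0.51 (standard error 0.08, adjusted p = 2.83e-05). The groups did not overlap for any of these 3 pores, nor for 61.3% of all genes tested. With the length trend removed their log2 ratios were 0.86, 0.26 and 0.23, and all 3 still passed.

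Another L-type pore, Cacna1d, was called, but its direction and call held in only 9 of 13 alternatives. It held 43.4 and 44.4 CPM in WT and 61.0 and 52.3 CPM in CcKO, a log2 ratio of 0.37 (standard error 0.08, edgeR adjusted p = 0.00130). With the length trend removed it was 0.01 (adjusted p = 0.966). The P/Q-type pore Cacna1a was called with a log2 ratio of 0.33 (adjusted p = 0.0414), but the libraries of its groups overlapped. Its log2 ratio with the length trend removed was 0.03 (adjusted p = 0.914). Cacna1h, the most abundant T-type pore, held 135.8 and 142.0 CPM in WT and 158.5 and 142.9 CPM in CcKO. Its log2 ratio of 0.12 did not pass (95% confidence interval -0.02 to 0.25, adjusted p = 0.185). With the length trend removed Cacna1h was called lower (log2 ratio -0.20, adjusted p = 0.0249). It was not called with the length and GC trends removed (log2 ratio -0.14, adjusted p = 0.112).

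Auxiliary calcium subunits were called in both directions. Cacnb3 fell from 302.9 and 314.1 CPM in WT to 253.8 and 260.9 CPM in CcKO, a log2 ratio of -0.26 (standard error 0.05, edgeR adjusted p = 2.54e-04). Cacng2, the TARP known as stargazin, fell from 33.0 and 29.9 CPM to 24.1 and 25.4 CPM, a log2 ratio of -0.35 (standard error 0.11, adjusted p = 0.0212). Cacnb1 rose from 52.2 CPM in each WT library to 60.6 and 62.6 CPM, a log2 ratio of 0.24 (standard error 0.07, adjusted p = 0.0124). For these 3 subunits the WT and CcKO libraries did not overlap, nor did those of 61.3% of all genes. The call of Cacng2 was lost when WT replicate 1 (adjusted p = 0.161) or CcKO replicate 1 (0.119) was left out, and that of Cacnb1 when WT replicate 2 (0.0603) or CcKO replicate 2 (0.0923) was. Cacng4 rose by 0.23 on the log2 scale (standard error 0.08, adjusted p = 0.0318), and that rise did not pass when WT replicate 1 was left out (adjusted p = 0.246) or CcKO replicate 2 (adjusted p = 0.235). None of the 3 tested alpha2delta subunits was called. With the length trend removed, Cacna2d1 was called lower (log2 ratio -0.31, adjusted p = 3.66e-04).

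Voltage-gated potassium pores were called in 13 of 32 tested members, 12 higher and 1 lower, against 30.3% of all genes. Kcnq3, a pore of the M-current that restrains repeated firing (Entrez gene 110862, chromosome 15, 65986374 to 66286636), held 11.1 and 9.28 CPM in WT and 27.1 and 26.5 CPM in CcKO. The log2 ratio was 1.40 (standard error 0.11, edgeR adjusted p = 5.17e-11), and 1.41 with the length trend removed. Kcnq5, a related pore, held 6.49 and 5.85 CPM in WT and 15.1 and 12.4 CPM in CcKO, a log2 ratio of 1.16 (standard error 0.15, adjusted p = 7.2e-07). CcKO lay above WT in both libraries for both pores, and the 2 groups did not overlap for 61.3% of all genes.

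Kcna3 (Entrez gene 16491, chromosome 3, 107036162 to 107038129) was counted over 1968 bases. It held 7.85 and 5.92 CPM in WT and 21.9 and 19.96 CPM in CcKO. The groups did not overlap, as in 61.3% of all genes. The log2 ratio was 1.61 (standard error 0.13, edgeR adjusted p = 1.04e-10), and it was 1.71 with the length trend removed. Kcnd3, a pore of the rapidly inactivating A-type current, held 34.8 and 37.5 CPM in WT and 51.2 and 53.7 CPM in CcKO, a log2 ratio of 0.54 (standard error 0.08, adjusted p = 3.61e-06), or 0.26 with the length trend removed (adjusted p = 0.017). Kcnd3 overlaps its own antisense member Kcnd3os, and reads of the pair cannot be told apart without the strand.

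Further voltage-gated pores of lower level rose as well, with no overlap between WT and CcKO libraries, as in 61.3% of all genes. The ERG-family pore Kcnh7 held 9.26 and 6.60 CPM in WT and 15.7 and 13.4 CPM in CcKO, a log2 ratio of 0.88 (standard error 0.15, edgeR adjusted p = 4.75e-05). The EAG-family pore Kcnh5 held 3.41 and 6.49 CPM in WT and 10.3 CPM in each CcKO library, a log2 ratio of 1.04 (standard error 0.20, adjusted p = 1.88e-04). Kcnb2, a delayed rectifier, and Kcng1, an electrically silent subunit that modifies such channels, rose by 0.84 and 0.87 on the log2 scale (adjusted p = 6.86e-04 and 8.14e-04). Kcnh2, the pore known from the cardiac repolarising current, went the other way, from 38.1 and 40.1 CPM to 31.0 and 30.7 CPM, a log2 ratio of -0.34 (adjusted p = 0.00765).

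Of the other potassium pores, 2 of 7 calcium- or sodium-activated channels, 2 of 9 inward rectifiers and 2 of 7 two-pore leak channels were called. The share over all genes was 30.3%. Kcnn3, a small-conductance channel, held 44.7 and 40.9 CPM in WT and 62.9 and 60.7 CPM in CcKO, a log2 ratio of 0.53 (standard error 0.08, edgeR adjusted p = 3.8e-06), or 0.24 with the length trend removed (adjusted p = 0.0194), while Kcnn2 and Kcnn1 did not pass (log2 ratios 0.16 and 0.07, adjusted p = 0.164 and 0.632). The large-conductance channel Kcnma1 held 6.10 and 5.85 CPM in WT and 11.8 and 11.1 CPM in CcKO, a log2 ratio of 0.94 (standard error 0.18, adjusted p = 2.06e-04). Each pair of groups stood apart for Kcnn3 and Kcnma1, as in 61.3% of all genes. The inward rectifier Kcnj10, known from glia, held 9.39 and 11.8 CPM in WT and 15.3 and 17.7 CPM in CcKO, a log2 ratio of 0.64 (standard error 0.15, adjusted p = 0.00192). The 6 radial glia markers summed to 708 and 729 CPM in WT and 759 and 858 CPM in CcKO, with 2 of 6 (Slc1a3 and Sox2) called higher, and the 3 astrocyte markers to 17.5 and 18.02 CPM in WT and 22.4 and 24.2 CPM in CcKO, with 0 of 3 called. Their part in the rises of channel genes was not tested, and in bulk samples fewer cells of a type and less RNA per cell cannot be told apart. Pericyte markers also stood higher, at 6.01 and 6.81 CPM in WT against 12.7 and 11.7 CPM in CcKO with 1 of 4 called, and erythroid markers at 2.77 and 2.25 against 9.49 and 5.90 CPM with 1 of 2 tested called. Of the 6 excitatory neuron markers 3 were called higher and 2 lower, and 1 of 3 intermediate progenitor and 1 of 5 microglia markers higher. The part of these markers was not tested either.

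The leak channels differed in direction. Kcnk10 held 27.3 and 26.8 CPM in WT and 33.7 and 34.8 CPM in CcKO, a log2 ratio of 0.34 (standard error 0.09, edgeR adjusted p = 0.00339). Kcnk2, a mechanically gated relative, fell from 77.3 and 79.7 CPM to 64.3 and 66.6 CPM, a log2 ratio of -0.26 (standard error 0.07, adjusted p = 0.00740). With Kcnh2, Kcnk2 and the beta subunit Kcnab3 (log2 ratio -0.39, adjusted p = 0.0159), all 3 potassium members called lower have been named, these 3 after their values were seen. A further 4 potassium pores called higher, also chosen after their values were seen, were Kcnc1, Kcna1 and Kcnj2 (log2 ratios 0.30, 0.41 and 0.84, adjusted p = 0.00373, 0.0102 and 0.0438) and Kcnh1, which rested on 2 counts in each WT library and 8 and 20 in CcKO (adjusted p = 0.0289). None of these 4 passed with the length trend removed (adjusted p = 0.638, 0.781, 0.162 and 0.0758). The non-coding Kcnq1ot1, at 83437 bases the longest member, was called higher (log2 ratio 0.58, adjusted p = 0.00127) but lower with the length trend removed (log2 ratio -0.50, adjusted p = 0.00658).

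Of 10 tested sodium channel members only Scn3a was called, against 30.3% of all genes. It held 103.6 and 96.3 CPM in WT and 127.2 and 108.0 CPM in CcKO, a log2 ratio of 0.23 (standard error 0.07, edgeR adjusted p = 0.0105). The call was lost when CcKO replicate 1 was left out (adjusted p = 0.250) or WT replicate 2 (adjusted p = 0.143), and with the length trend removed the value was -0.14 (adjusted p = 0.143). Scn8a, Scn2a and Scn3b had log2 ratios of 0.05 (95% confidence interval -0.11 to 0.20), 0.02 (-0.23 to 0.26) and -0.07 (-0.21 to 0.08). Scn1a stood at 29.2 and 31.3 CPM in WT and 30.7 and 24.1 CPM in CcKO, a log2 ratio of -0.15 (adjusted p = 0.287), and at -0.47 it passed with the length trend removed (adjusted p = 7.97e-04). With that trend removed Scn8a stood at -0.39 (adjusted p = 2.72e-04) and Scn3b at -0.205 (adjusted p = 0.0349). Scn2a then stood at -0.32 and was not called (adjusted p = 0.0544). It was called lower with the length and GC trends removed (log2 ratio -0.33, adjusted p = 0.0375).

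**Figure D2:**
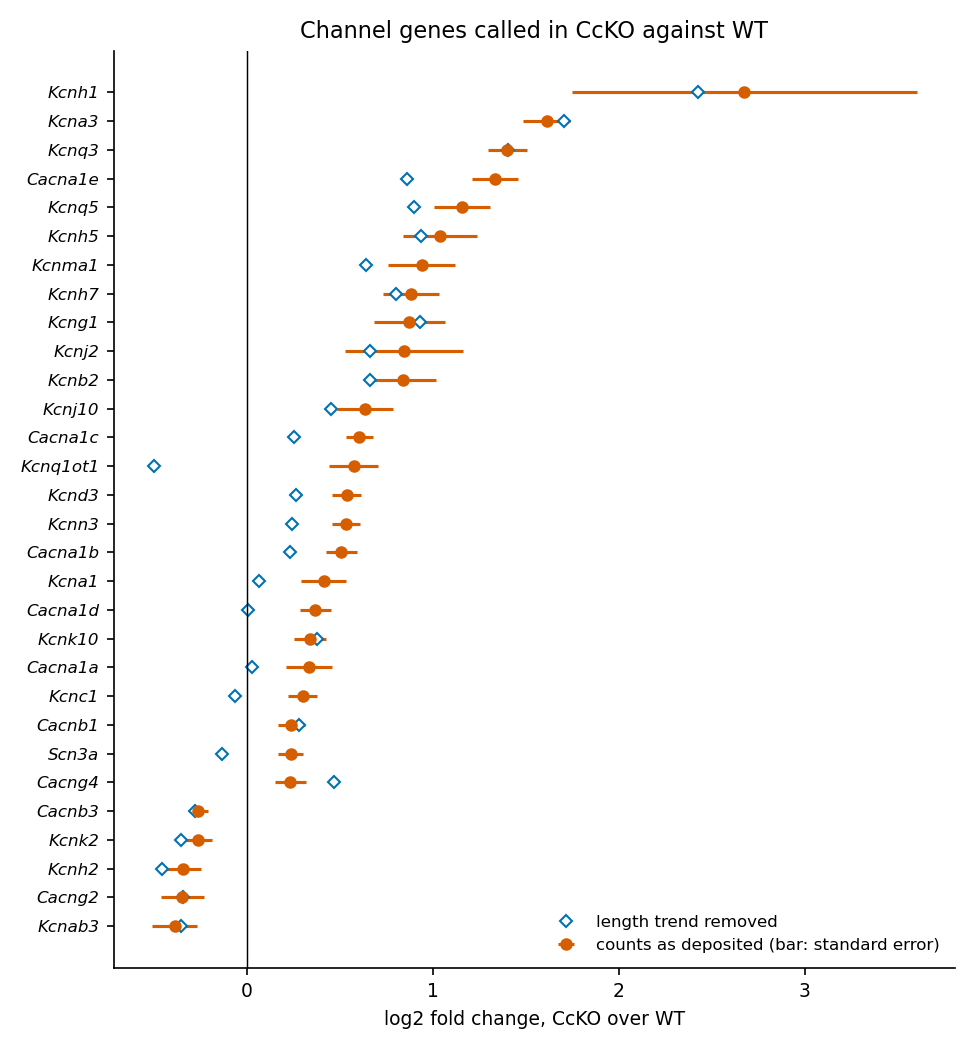
Log2 fold change of CcKO over WT for channel genes called, with the standard error, beside the value with the length trend removed (open diamonds). Kcna3 and Kcnq3 are nearly unmoved, Cacna1e shrinks from 1.33 to 0.86, and Kcnq1ot1, Scn3a and Kcnc1 cross 0.

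Gene length was a measured feature of the called members. The 26 members called higher had a median length of 7061.5 bases and the 5 called lower 3120 bases, against 3895.5 bases over the tested members and 2784 bases over all tested genes. Over all genes, the median log2 ratio of CcKO over WT ran from -0.28 in the shortest length decile to 0.33 in the longest, which held 28 of the 102 members with a median of 0.35. For WT against PB-Ctrl, which shares the WT libraries, it ran from 0.40 to -0.50. Of the 26 members called higher, 17 were still called higher with the length trend removed, 8 were not called and 1, Kcnq1ot1, was called lower. The log2 ratio moved by at most 0.1 in 6 of the 26, among them Kcna3, Kcnq3, Kcng1 and Kcnk10.

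**Figure D3:**
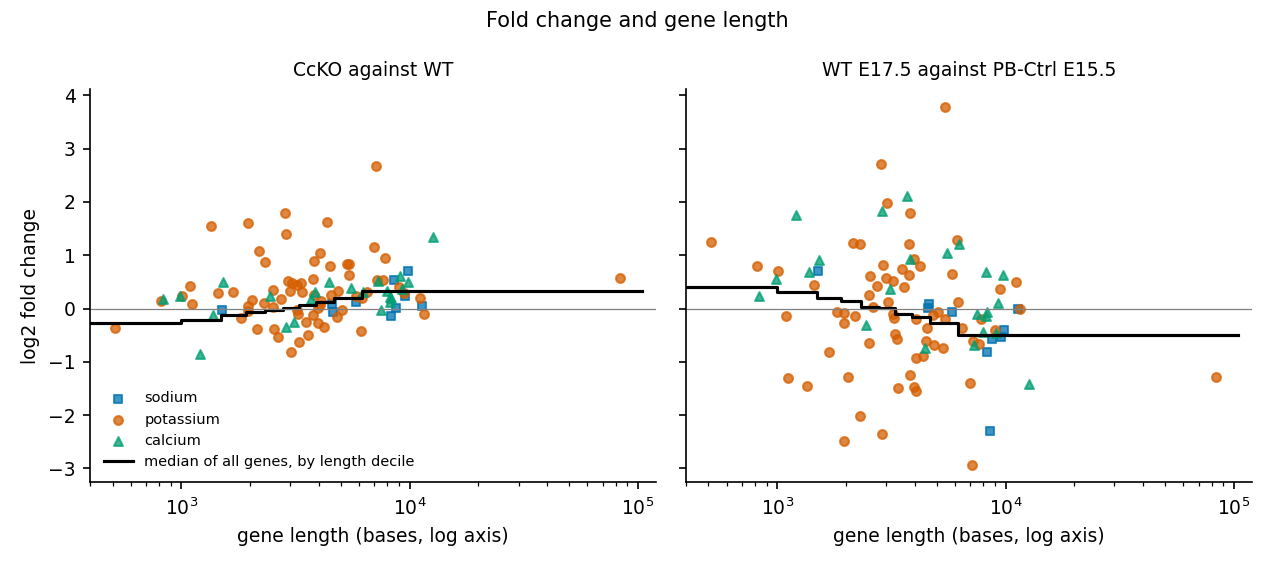
Log2 fold change against gene length (log axis) for the tested sodium (squares), potassium (circles) and calcium (triangles) channel genes, in CcKO against WT and in WT against PB-Ctrl, with the median of all genes by length decile as a stepped line. The line rises with length on the left and falls on the right, and several potassium channel genes lie far from it.

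The promoter windows of Kcna3 and Cacna1e are shown because these genes had the largest log2 ratios in CcKO among the called potassium and calcium members, Kcnh1 with its 2 counts per WT library aside. Sequences are from RefSeq on GRCm38.p6, from 250 bases before to 50 after an annotated start, with GC boxes (GGGCGG) in capitals. The Kcna3 window is chr3:107035912-107036211 on the plus strand, and the Cacna1e window is chr1:154725871-154726170 on the minus strand, at a start inside the gene's annotated span.
Kcna3: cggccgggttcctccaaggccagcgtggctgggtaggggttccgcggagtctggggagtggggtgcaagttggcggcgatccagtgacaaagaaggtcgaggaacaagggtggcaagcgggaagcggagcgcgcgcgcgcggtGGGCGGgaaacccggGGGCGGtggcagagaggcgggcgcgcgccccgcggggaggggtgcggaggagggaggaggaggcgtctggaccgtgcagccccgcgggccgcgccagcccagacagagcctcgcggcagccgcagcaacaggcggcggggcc
Cacna1e: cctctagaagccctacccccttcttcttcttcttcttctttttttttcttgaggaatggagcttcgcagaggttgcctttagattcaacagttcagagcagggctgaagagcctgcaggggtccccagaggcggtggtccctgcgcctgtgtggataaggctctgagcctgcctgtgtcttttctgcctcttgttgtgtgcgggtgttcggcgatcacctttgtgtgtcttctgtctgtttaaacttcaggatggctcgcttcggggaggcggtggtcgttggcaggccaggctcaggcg
Of the 121 members, 87 had such windows, 119 in all. Searched on both strands, GGGCGG was in 49.6% of the members' windows against 35.7% of 32851 windows of all genes. CCAAT was in 29.4% against 37.4%, TATAAA in 5.04% against 13.6%, and TGACGTCA in 0 of 119 against 1.79%. The Kcna3 window held 2 GC boxes, the Cacna1e window none of the 4 motifs. A match is only a description of these letters.

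Among 29 tested partner genes of channel complexes, 7 were called higher in CcKO and 0 lower, against 17.4% and 12.9% of all genes. Rest, the repressor of neuronal channel genes, rose from 3.42 ± 0.0086 to 9.76 ± 0.12 CPM (SD, n = 2), a log2 ratio of 1.51 (standard error 0.17, edgeR adjusted p = 1.16e-07). The pacemaker channel Hcn4 rose from 15.1 ± 1.5 to 27.6 ± 0.90 CPM (adjusted p = 1.01e-06), and Unc79, a subunit of the sodium leak channel complex, from 60.0 ± 5.6 to 86.0 ± 0.47 CPM (adjusted p = 9.41e-07). The rise of Unc79 did not pass with the length and GC trends removed (log2 ratio 0.17, adjusted p = 0.0542). Cachd1, a calcium channel regulator, and the small GTPase Gem rose by 0.26 and 0.36 on the log2 scale (adjusted p = 0.0176 and 0.034). Cachd1 was not called in 7 of 13 alternatives, among them the length trend removed (log2 ratio 0.10, adjusted p = 0.483), and Gem in 5 of 13, with an adjusted p of up to 0.334 without CcKO replicate 2. Nfasc, which anchors the axon initial segment, rose by 0.22 (adjusted p = 3.19e-04) but had a log2 ratio of -0.18 with the length trend removed.

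**Figure D4:**
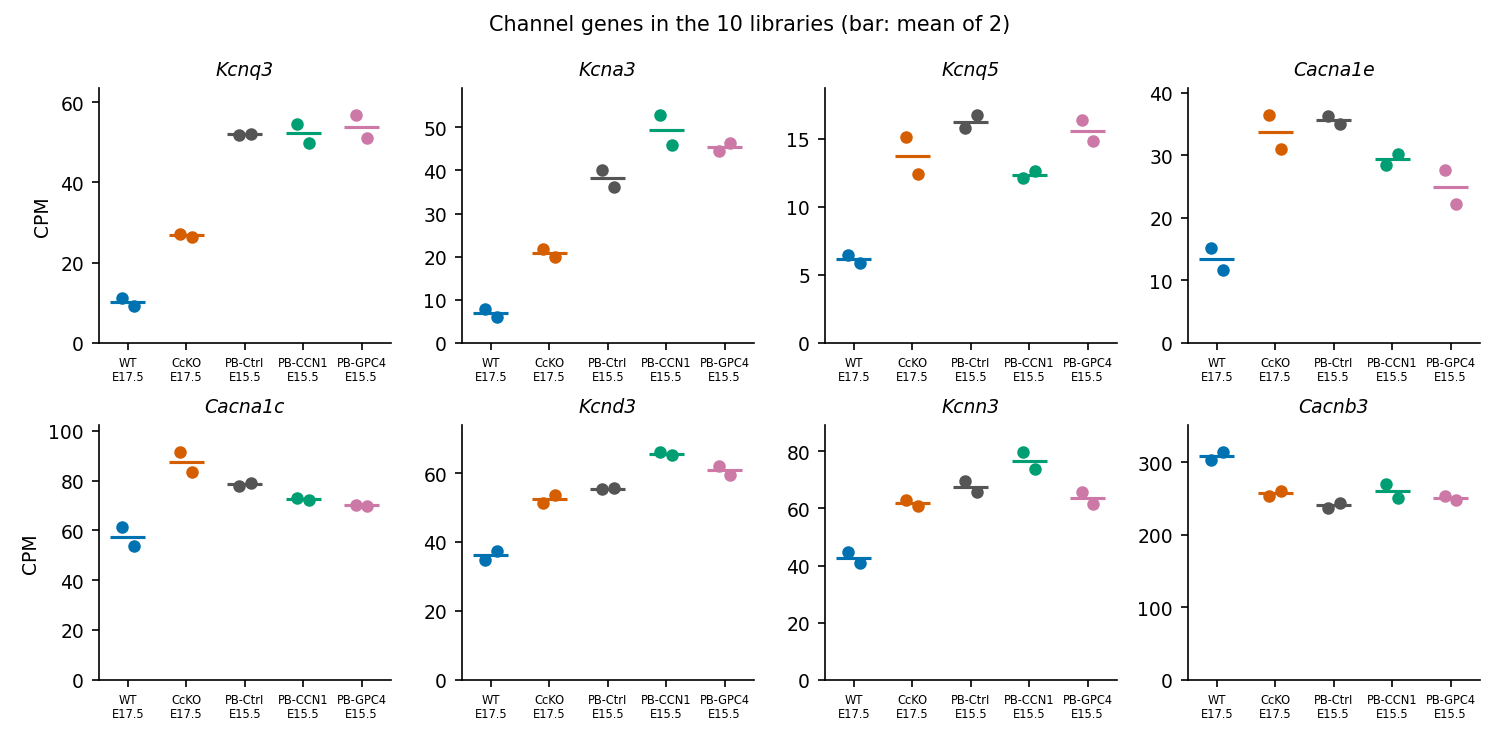
TMM-normalised CPM of 8 channel genes in each of the 10 libraries, with the mean of 2 as a bar. Kcnq3, Kcna3, Kcnq5, Cacna1e, Cacna1c, Kcnd3 and Kcnn3 lie lowest in WT, and Cacnb3 highest.

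Both WT libraries lay outside the range of the other 8 for many genes, and channel genes were not set apart in this. The 8 others lay above both WT libraries for 23 of the 102 tested members, and below them for 10, against 20.4% and 18.4% of all tested genes. Among the 23 were 18 potassium members, 4 calcium members and 1 sodium member. CcKO against WT and WT against PB-Ctrl share these WT libraries. For Kcnq3, means were 10.2 CPM in WT, 26.8 CPM in CcKO, 52.0 CPM in PB-Ctrl and 52.2 CPM in PB-CCN1. For Cacna1e they were 13.4, 33.7, 35.6 and 29.4 CPM in the same order.

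What added CCN1 does at E15.5 was addressed by PB-CCN1 against PB-Ctrl. Of 102 tested members 1 was called, Cacng5, and it was lower, against 1.19% of all genes, 0.442% higher and 0.748% lower. Cacng5, a TARP (Entrez gene 140723), held 6.83 and 10.9 CPM in PB-Ctrl and 4.03 and 3.45 CPM in PB-CCN1. The groups did not overlap, as in 45.4% of all genes, and the log2 ratio was -1.25 (standard error 0.21, edgeR adjusted p = 7.25e-04). The call was lost without PB-Ctrl replicate 2 (log2 ratio -0.88, adjusted p = 0.111) and with limma on log2(FPKM + 1) (adjusted p = 0.142). At an unadjusted p under 0.05 there were 15 of the 102 members, against 11.7% of all genes, and 0 was called of 69 potassium and 10 sodium members. Kcna3 stood at 40.1 and 36.3 CPM in PB-Ctrl and 52.8 and 46.0 CPM in PB-CCN1, a log2 ratio of 0.37 that did not pass (95% confidence interval 0.16 to 0.58, adjusted p = 0.0749). Kcnq3 had a log2 ratio of 0.01 (-0.18 to 0.19). Of 29 partner genes, only the ankyrin gene Ank2 was called, and it was lower (log2 ratio -0.26, standard error 0.06, adjusted p = 0.0193). That call was lost whichever library was left out (adjusted p from 0.108 to 0.259) and with both limma fits (0.162 and 0.159).

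Added GPC4 at the same age was addressed by PB-GPC4 against PB-Ctrl. A set of 7 members was called, 2 higher and 5 lower, against 6.36% of all genes, 3.19% higher and 3.17% lower. The potassium subunit Kcnf1 and channel Kcnn1 were higher, and the calcium members Cacna1h, Cacna1e and Cacng5 and the sodium pores Scn8a and Scn2a were lower.

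Kcnf1, an electrically silent subunit that modifies Kcnb channels (Entrez gene 382571, chromosome 12, 17172100 to 17176888), held 12.9 and 15.5 CPM in PB-Ctrl, 19.8 and 17.7 CPM in PB-CCN1 and 25.9 and 24.4 CPM in PB-GPC4. PB-GPC4 libraries lay above all others, and the log2 ratio over PB-Ctrl was 0.82 (standard error 0.12, edgeR adjusted p = 7.8e-05). This call passed in all 13 alternatives, with adjusted p from 3.39e-08 to 0.0285. Against PB-CCN1 it was 0.43 and did not pass (95% confidence interval 0.18 to 0.67, adjusted p = 0.0651). Its promoter window is shown since Kcnf1 had the larger log2 ratio of the 2 channel genes called higher under GPC4. It is chr12:17176839-17177138 on the minus strand of GRCm38.p6, from RefSeq, with none of the motifs above:
Kcnf1: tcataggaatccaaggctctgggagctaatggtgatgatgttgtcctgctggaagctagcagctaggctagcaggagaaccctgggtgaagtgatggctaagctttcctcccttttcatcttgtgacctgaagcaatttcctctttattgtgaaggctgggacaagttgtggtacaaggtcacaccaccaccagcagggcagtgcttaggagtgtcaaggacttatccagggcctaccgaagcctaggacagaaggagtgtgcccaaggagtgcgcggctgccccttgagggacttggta

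The remaining calls under GPC4 were smaller. Cacna1h fell from 157.7 and 148.2 to 113.2 and 128.2 CPM, a log2 ratio of -0.34 (standard error 0.06, edgeR adjusted p = 0.00133). Cacna1e fell from 36.2 and 35.0 to 27.6 and 22.2 CPM, a log2 ratio of -0.52 (standard error 0.12, adjusted p = 0.00630). Scn8a fell from 87.8 and 85.4 to 69.8 and 70.1 CPM, a log2 ratio of -0.31 (standard error 0.08, adjusted p = 0.0137), and Scn2a by 0.40 (adjusted p = 0.0384). None of these 4 pairs of groups overlapped, nor did those of 53.7% of all genes. Kcnn1 rose from 48.7 and 52.1 to 61.3 and 60.9 CPM, a log2 ratio of 0.28 (standard error 0.08, adjusted p = 0.0410). Cacng5 fell from 6.83 and 10.9 to 6.01 and 5.09 CPM, a log2 ratio of -0.68 (standard error 0.19, adjusted p = 0.0297), and without PB-Ctrl replicate 2 it was -0.30 (adjusted p = 0.592). Of 13 alternatives, Cacna1h was not called in 4, Cacna1e and Cacng5 in 5 each, Scn8a and Kcnn1 in 6 each, and Scn2a in 8. Scn2a was not called with the DESeq2 Wald test (adjusted p = 0.0634) or with the length trend removed (edgeR adjusted p = 0.0525). Both limma fits left 1 call.

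PB-GPC4 radial glia markers summed to 594 and 597 CPM and those of PB-Ctrl to 694 and 701 CPM, with 3 of 6 called lower, and excitatory neuron markers to 6887 and 6739 against 6160 and 6245 CPM, with 3 of 6 called higher. Interneuron markers summed to 10.6 and 10.99 against 17.4 and 17.1 CPM, with 2 of 6 called lower. Their part in the channel calls was not tested. Of 29 partner genes 3 were lower and 0 higher, against 3.17% and 3.19% of all genes. Abcc8, the partner of Kcnj11 in ATP-sensitive channels, fell from 209.8 ± 0.43 to 160.4 ± 0.69 CPM (SD, n = 2, edgeR adjusted p = 7.81e-05). Ank2 fell by 0.36 on the log2 scale and Gem by 0.47 (adjusted p = 0.0209). Gem was not called whichever library was left out (adjusted p from 0.0905 to 0.186). Kcnj11 itself stood at 65.2 and 63.7 CPM in PB-Ctrl and 58.2 and 60.8 CPM in PB-GPC4 and was not called.

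**Figure D5:**
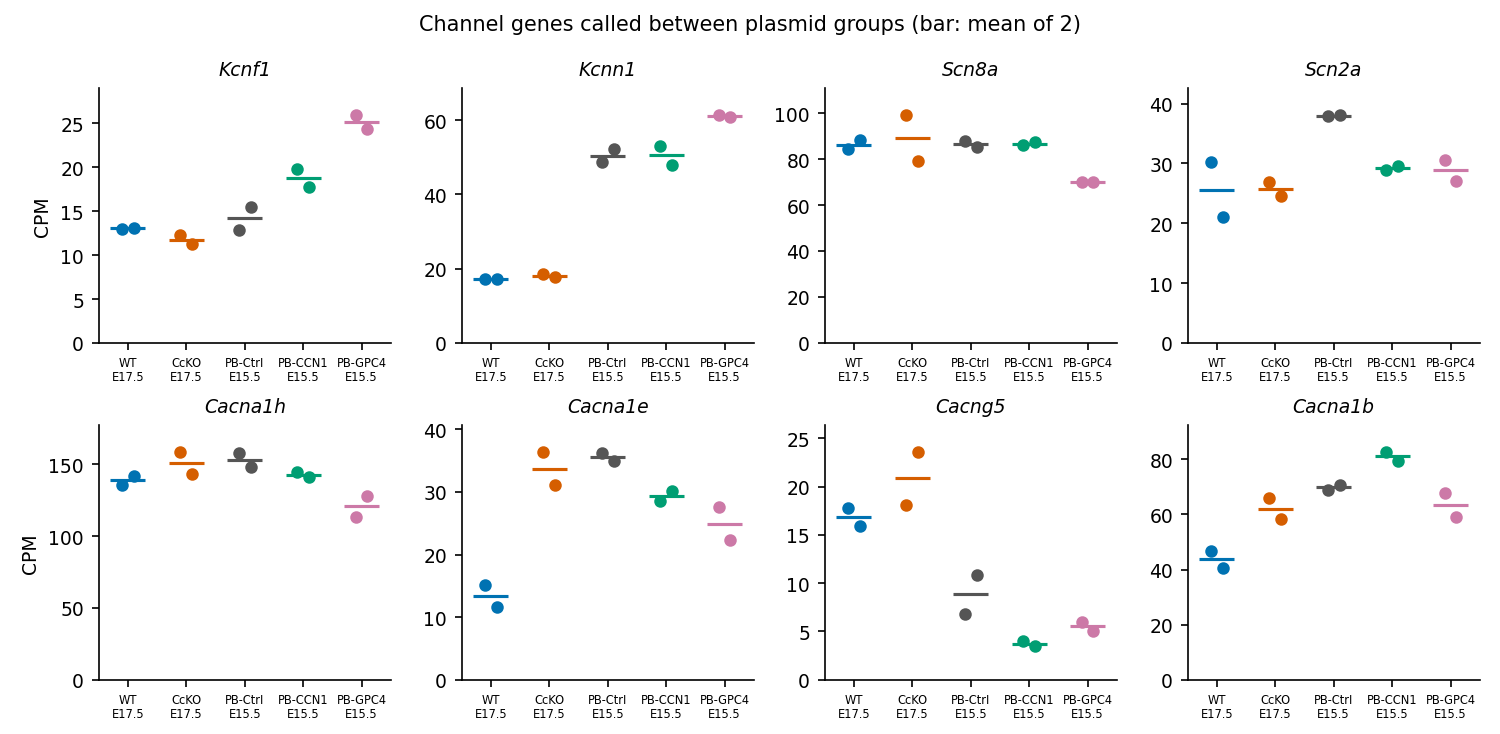
TMM-normalised CPM of 8 channel genes in each of the 10 libraries, with the mean of 2 as a bar. Kcnf1 is highest in PB-GPC4, Scn8a lowest there among the E15.5 groups, and Cacng5 is lowest in PB-CCN1.

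PB-GPC4 was also compared directly with PB-CCN1, and 4 members were called, all lower, against 2.15% of all genes, 0.755% higher and 1.4% lower. Cacna1b stood at 82.7 and 79.6 CPM in PB-CCN1 and 67.9 and 59.2 CPM in PB-GPC4, a log2 ratio of -0.35 (standard error 0.08, edgeR adjusted p = 0.0166). Scn8a stood at 85.9 and 87.6 CPM in PB-CCN1, a log2 ratio of -0.31 (standard error 0.08, adjusted p = 0.0292). Kcnn3 and Cacna1h had -0.27 and -0.24 (adjusted p = 0.0466 and 0.0479). The 2 groups did not overlap for any of the 4, nor for 46.9% of all genes. None of the 4 calls held in every alternative. The 3 comparisons at E15.5 share libraries, so the values stand side by side: Scn8a averaged 86.6 CPM in PB-Ctrl, 86.8 CPM in PB-CCN1 and 70.0 CPM in PB-GPC4, and Cacna1h 152.9, 142.7 and 120.7 CPM.

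WT at E17.5 was compared with PB-Ctrl at E15.5 to see how channel genes differ between the 2 control groups, both of which received PB-Ctrl. Strain, age, day of electroporation and days since it differ together and cannot be told apart. Of 102 members 57 were called, 27 higher and 30 lower in WT, against 54.9% of all genes, 26.4% higher and 28.6% lower. With the length trend removed the split was 33 higher and 20 lower, and with length and GC trends removed 32 and 20.

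Of the 7 gamma-family calcium channel genes 6 were called higher in WT at E17.5 and 0 lower, against 26.4% and 28.6% of all genes. Among the other auxiliary calcium subunits, 2 of 3 tested alpha2delta subunits were higher. Of the beta subunits Cacnb3 was higher and Cacnb1 lower (log2 ratios 0.36 and -0.32, edgeR adjusted p = 9.66e-07 and 4.91e-04). With the length trend removed, Cacng2, Cacng5 and Cacng8 of the gamma family stayed higher. Cacng1 and Cacng4 were then not called (adjusted p = 0.113 and 0.0509), nor was Cacng7 (log2 ratio -0.15, adjusted p = 0.0775). With the length and GC trends removed, Cacng7 was called lower (log2 ratio -0.29, adjusted p = 0.00166) and Cacng8 was not called (adjusted p = 0.464). Cacng2 stood at 33.0 and 29.9 CPM in WT and 9.26 and 8.40 CPM in PB-Ctrl, a log2 ratio of 1.83 (standard error 0.12, edgeR adjusted p = 5.79e-13). The alpha2delta subunit Cacna2d3 stood at 12.1 and 11.7 CPM against 2.89 and 2.62 CPM, a log2 ratio of 2.11 (standard error 0.19, adjusted p = 3.26e-10). The inward rectifier Kcnj2 stood at 4.05 and 3.21 CPM against 0.309 and 0.213 CPM, the latter from 8 and 6 counts, a log2 ratio of 3.78 (standard error 0.43, adjusted p = 2.09e-08). No groups overlapped for these 3 genes, nor for 77.3% of all genes. The leak channels Kcnk3 and Kcnk1, the sodium-activated Kcnt1, Kcnh4 and the antisense transcript Kcnmb4os2 rose by 1.79, 1.21, 1.29, 1.21 and 1.24 on the log2 scale and held 1.96 to 4.60 CPM in the WT libraries. Kcnmb4os2 overlaps Kcnmb4, which was also called higher in WT, and reads of the pair cannot be told apart without the strand. Kcnh4 was not called in 7 of 13 alternatives, with adjusted p up to 0.295 without WT replicate 2. Kcnt1 was not called without WT replicate 2 or PB-Ctrl replicate 1 (log2 ratios 0.88 and 0.86), nor Kcnk1 without WT replicate 1 or PB-Ctrl replicate 2 (log2 ratios 1.16 and 1.15).

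Kcnh1, at 2 counts in each WT library, aside, the largest falls were in Kcna3, which stood at 40.1 and 36.3 CPM in PB-Ctrl and 7.85 and 5.92 CPM in WT, a log2 ratio of -2.48 (standard error 0.12, edgeR adjusted p = 7.39e-16), and in Kcnq3, at 51.8 and 52.1 against 11.1 and 9.28 CPM, a log2 ratio of -2.36 (standard error 0.10, adjusted p = 5.47e-17). Kcng1, Kcnn1 and Cacna1e had log2 ratios of -2.01, -1.55 and -1.41, and Kcnk5 and Kcnt2, at low level, -1.50 and -1.47. The small-conductance channels Kcnn1, Kcnn2 and Kcnn3 were all lower, and their summed family FPKM with Kcnn4 was 26.3 and 26.0 in WT against 61.0 and 60.0 in PB-Ctrl. No sodium pore was called higher, and Scn1a, Scn2a and Scn3a fell by 0.81, 0.57 and 0.54 on the log2 scale. Scn8a had a log2 ratio of -0.01 (adjusted p = 0.961), with 84.2 and 88.3 CPM in WT and 87.8 and 85.4 CPM in PB-Ctrl. No sodium beta subunit was called. With the length trend removed, Scn8a and Scn3b were called higher (log2 ratios 0.70 and 0.30, edgeR adjusted p = 5.61e-09 and 6.21e-04). Scn1a was then still lower (log2 ratio -0.29, adjusted p = 0.0104). Scn2a and Scn3a were not called (log2 ratios -0.03 and 0.06, adjusted p = 0.851 and 0.436).

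Markers of other cell types also differed between these groups. Interneuron markers summed to 42.5 and 54.5 CPM in WT against 17.4 and 17.1 CPM in PB-Ctrl, with 6 of 6 called higher, and oligodendrocyte precursor markers to 70.1 and 83.0 against 2.86 and 3.83 CPM, with 4 of 4 called higher. Intermediate progenitor markers summed to 412 and 406 against 760 and 771 CPM, with 3 of 3 called lower. Their part in the channel differences was not tested. Of 29 partner genes 8 were higher and 10 lower in WT, against 26.4% and 28.6% of all genes. Rest stood at 3.42 CPM in WT and 13.2 CPM in PB-Ctrl (log2 ratio -1.95, standard error 0.17, edgeR adjusted p = 1.22e-10). In the same order, Cachd1 stood at 35.3 and 98.3 CPM and Abcc8 at 116.4 and 209.8 CPM. Stac2 and Rem2, calcium channel regulators, stood at 33.4 and 53.6 CPM in WT and at 12.6 and 25.1 CPM in PB-Ctrl.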

How the data were processed

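The submitters' processing notes name bcl2fastq, Trimmomatic, HISAT2, featureCounts and the build mm10, without versions. The deposited tables hold counts per Entrez gene, not normalised, and FPKM, which the authors scaled to gene length. Symbols came from RefSeq for 25274 IDs and GENCODE for 18, and 1886 IDs stayed unnamed. Channel genes, classes, marker and partner lists were chosen with earlier results of these data known. Some genes that the naming rule chose are not reported here or drawn by name, though they count among the members.

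Counts were tested with edgeR 4.0.16 (R 4.3.3) by the quasi-likelihood F-test, with TMM normalisation, filterByExpr and 5 group means in 1 model, two-sided, with Benjamini-Hochberg adjustment over 15371 genes, an adjusted p threshold of 0.05 and no minimum fold. The model had 5 residual degrees of freedom. Levels are TMM-normalised CPM, and SE is the standard error of the log2 fold change. The smooth trends were lowess fits with a span of 0.3. The 2 libraries of a group differed beyond counting error (chi-square per degree of freedom 3.37 to 8.76). Intervals and depth cover counting error and the spread between libraries only.

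Genes named were the called members with the smallest adjusted p in CcKO against WT (up to 14 potassium, 6 sodium and 8 calcium), all members called between plasmids, the 8 largest rises and falls between the control groups, the 5 highest mean FPKM per class, and up to 6 called partner genes. Alternatives used RLE size factors, no filter, a replicate block, each experiment alone, each library left out, trend removal, DESeq2 1.42.0, and limma 3.58.1 on log2 of FPKM plus 1 or 0.1.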

Additional observations from a re-analysis of the deposited data

How the results depend on the processing

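Every count below is of channel genes called. In CcKO against WT it was 31, and 22 to 28 with a library left out, 28 with DESeq2 and 24 or 25 with limma. In WT against PB-Ctrl it was 57, and 47 to 53 with a library left out. In PB-CCN1 against PB-Ctrl the count of 1 became 3 with no filter, 2 with the replicate block, 5 with the E15.5 experiment alone, 0 with limma on log2(FPKM + 1) and on log2(FPKM + 0.1), and 0 to 1 with a library left out. In PB-GPC4 against PB-Ctrl the count of 7 became 15 with the experiment alone, 1 with either limma fit, and 2 whichever library was left out. In PB-GPC4 against PB-CCN1 the count of 4 became 2 with RLE size factors, 9 with the experiment alone, 0 with either limma fit, and 0 to 1 with a library left out. The cause was not tested.

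Some log2 ratios of CcKO over WT reversed with the length trend removed. Among genes the naming rule chose, these were those of Kcnq1ot1 (-0.50), Nfasc (-0.18) and Scn3a (-0.14). With the length and GC trends removed they were -0.50, -0.16 and -0.15, and Cacna1d had -0.0074. Other members reversed too with the length trend removed, among them the called Kcnc1 (-0.06) and the uncalled Cacna1h (-0.20) and Scn8a (-0.39). Nfasc in WT against PB-Ctrl had 0.0143 with the length trend removed. Of the channel genes the naming rule chose, 16 of 23 in CcKO against WT, 1 of 7 in PB-GPC4 against PB-Ctrl, 0 of 4 in PB-GPC4 against PB-CCN1, 0 of 1 in PB-CCN1 against PB-Ctrl and 13 of 16 in WT against PB-Ctrl kept their direction and call under all 13 alternatives.

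Replicate numbers in the labels are shared between groups, but same-numbered libraries did not deviate together (r from -0.0539 to 0.00854 over genes). Whether they shared a litter, day or batch is not stated in the labels, and these values cannot settle it. With the replicate block 31, 2, 7, 3 and 56 members were called, against 31, 1, 7, 4 and 57 without it, for CcKO against WT, PB-CCN1 against PB-Ctrl, PB-GPC4 against PB-Ctrl, PB-GPC4 against PB-CCN1 and WT against PB-Ctrl. With 2 libraries a group, small differences of members at low level could not be called at this depth.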
